A study of Homo sapiens with 10 samples.

Results

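The E2F and DP family of transcription factors was described in U2OS cells, a human osteosarcoma line, after 4 h of PD0332991 and in the DMSO control. Probe sets of the deposited table annotated to exactly 1 symbol among E2F1 to E2F8, TFDP1 and TFDP2 were taken as the members, with the brightest one to be kept had a gene had several. This gave 9 of the 10 listed genes, 1 probe set each, among 14232 genes on single-symbol probe sets. TFDP1 was named by 1 probe set, which also carried another symbol, so its expression was not analysed here. The arrays measured 5 samples treated with PD0332991 (palbociclib), an inhibitor of the kinases CDK4 and CDK6, and 5 given the solvent DMSO. Both groups were seeded at 25% density and kept in McCoy medium with 10% serum for 30 h before the 4 h treatment, and were trypsinized before RNA extraction. The labels give the dose as 1 mM, which is doubtful, since cell culture work with this inhibitor usually stays in the micromolar range. They describe no synchronisation of the cells. All samples come from 1 cell line, so the values describe that line.

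E2F proteins bind DNA as dimers with a DP protein and control genes needed for entry into S phase. In quiescent and early G1 cells the pocket proteins RB1, RBL1 and RBL2 hold them in a repressing state, and phosphorylation by cyclin D-dependent kinases and then cyclin E with CDK2 releases them. E2F1, E2F2 and E2F3 act mainly as activators, E2F4 and E2F5 mainly as repressors with RBL1 and RBL2, E2F6 represses without a pocket protein, and E2F7 and E2F8 are atypical repressors that bind DNA without a DP partner. Several E2F genes are themselves E2F targets. The comparison asked how the RNA of these factors stood hours after the kinases upstream of RB1 were inhibited.

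The array names in the labels divide the arrays into set 1, with replicates 1 to 3 of both treatments, and set 2, with replicates 4 and 5 of both. Array medians lay between 6.95 and 7.06 (log2) and interquartile ranges between 3.18 and 3.68, with the narrowest range on DMSO replicate 1, which also correlated least with its own set (mean r = 0.963, against 0.980 to 0.988 on the other arrays). The mesenchymal genes VIM, COL1A1, SPARC, FN1 and CDH2 had mean values above those of 95.8% or more of all probe sets, while the other 3 of the 8 osteosarcoma and mesenchymal markers stood lower, the osteoblast regulator RUNX2 at percentile 59.8, the collagen gene COL1A2 at 43.2 and the alkaline phosphatase gene ALPL at 38.6. Of 5 measured blood cell genes, PTPRC and LYZ were below the lower quartile on all 10 arrays, CD3E on 8 and HBB on 7, but the monocyte gene CD14 on 0, at percentile 45.8. Of the 6 epithelial genes CDH1 and EPCAM stood at percentiles 29.0 and 32.1, KRT19 and CLDN4 at 49.6 and 52.8, and the keratin genes KRT8 and KRT18 at 97.3 and 94.7. No gene of the mesenchymal, epithelial and blood lists passed the treatment test (smallest limma adjusted p = 0.9995). These are bulk samples, so fewer cells in a given phase of the cycle and less RNA per cell cannot be told apart.

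Within the family the treatment difference was uneven. E2F2, an activator, fell by 1.01 on the log2 scale, and E2F8, an atypical repressor, had a difference of nearly that size, -0.92, which did not pass the test across all probe sets (limma adjusted p = 0.00289 for E2F2 and 0.106 for E2F8). The other 7 members had log2 fold changes between -0.21 and 0.15. The members were chosen with earlier results of these data known, so the shares of all probe sets are given beside them as a description. In the limma fit with array set as a covariate, 1 of 9 members was called lower, while 0.0409% of all 21980 probe sets were, and 0 of 9 were called higher, with 0.0091% among all probe sets. At an unadjusted p under 0.05 limma gave 2 members as lower and 0 as higher, with 2.76% of all probe sets lower and 1.41% higher. The median log2 fold change was -0.06 over the members and -0.02 over all probe sets. Every treated array lay below every DMSO array for 2 of the 9 members, an order that 0.56% of all probe sets had, and above every DMSO array for 0 of the 9, with 0.214% among all probe sets.

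**Figure D1:**
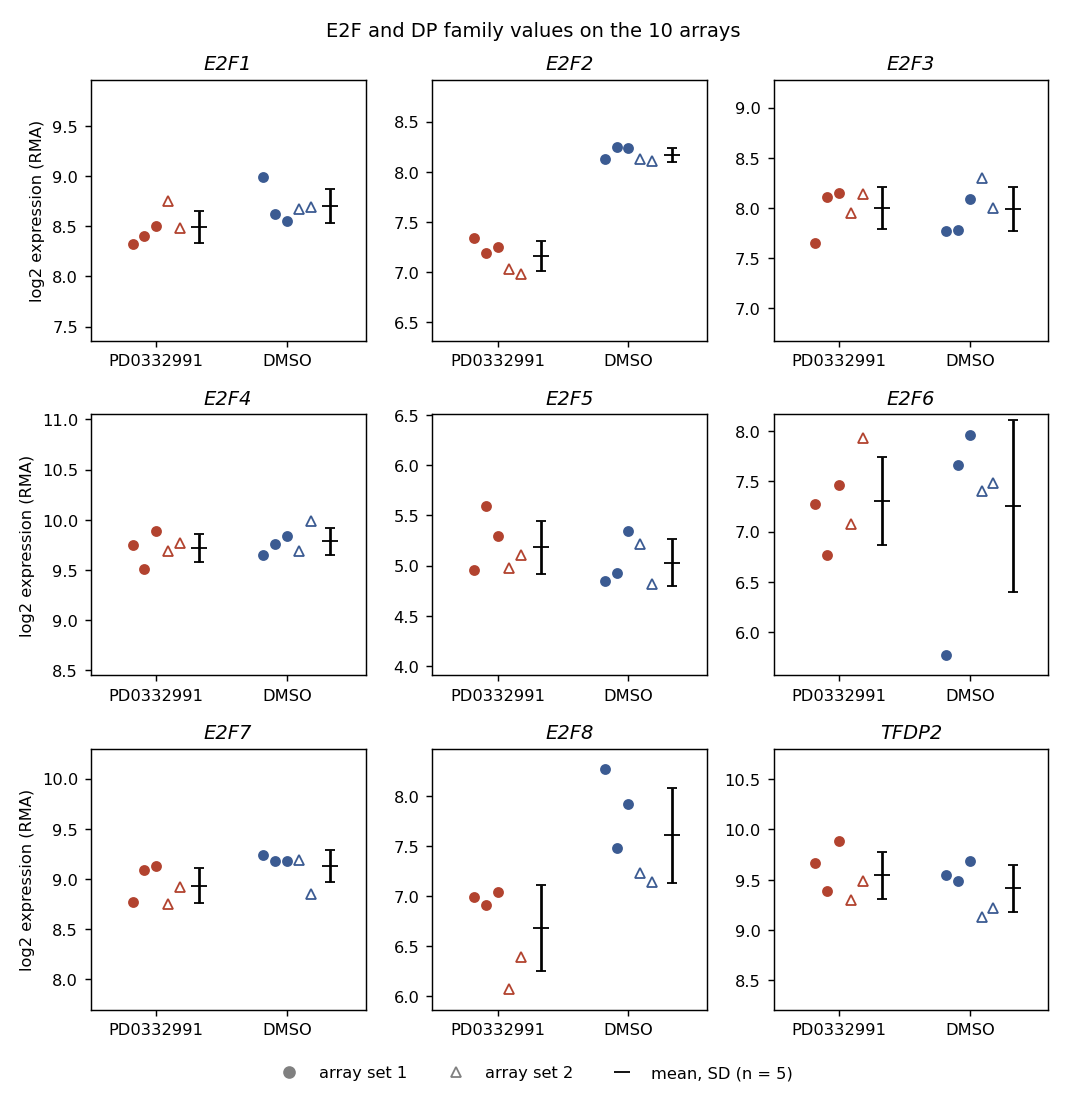
Log2 expression of the 9 measured members on the 10 arrays, PD0332991 left and DMSO right in each panel, filled circles for array set 1 and open triangles for set 2, with the mean and SD of each treatment (n = 5). The y axes differ in level and share a span of equal length; the E2F2 points do not overlap between treatments, and the E2F8 points do not either, though both groups are lower in set 2.

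E2F2 had values of 7.34, 7.19, 7.25, 7.03 and 6.98 in PD0332991 replicates 1 to 5, against 8.13, 8.24, 8.24, 8.12 and 8.10 in DMSO replicates 1 to 5 (log2). The DMSO arrays lay within a span of 0.14 and the highest treated array was 0.76 below the lowest of them. E2F2 averaged 7.16 ± 0.15 after PD0332991 and 8.17 ± 0.07 in DMSO (SD, n = 5 each), a 2.01-fold decrease with a 95% interval of 1.77 to 2.29 (limma adjusted p = 0.00289). The difference was -0.94 in array set 1 and -1.11 in array set 2. E2F2 stayed past the threshold when any 1 array was left out (limma adjusted p = 0.00210 to 0.0323). It did not pass in either array set fitted alone (limma adjusted p = 0.612 and 0.451).

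E2F1, the activator also known for inducing apoptosis genes, had 8.33, 8.40, 8.50, 8.75 and 8.48 in PD0332991 replicates 1 to 5, against 8.99, 8.62, 8.55, 8.67 and 8.69 in DMSO replicates 1 to 5 (log2). The treatments overlapped through the treated replicate 4. The log2 fold change of E2F1 was -0.21 with a 95% interval of -0.47 to 0.05 (limma adjusted p = 0.9995). Leaving out 1 array put it between -0.27, without PD0332991 replicate 4, and -0.12, without DMSO replicate 1, the highest E2F1 array. E2F3, another activator, had 7.65, 8.11, 8.15, 7.95 and 8.14 in PD0332991 replicates 1 to 5 and 7.77, 7.78, 8.09, 8.29 and 8.003 in DMSO replicates 1 to 5. Its groups overlapped over most of their range, and the log2 fold change of 0.01 had an interval of -0.28 to 0.31 (limma adjusted p = 0.9997). Transcripts from both promoters of E2F3, which encode the E2F3a and E2F3b proteins, cannot be separated in this gene-level value. Which of them its probes cover was not checked.

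**Figure D2:**
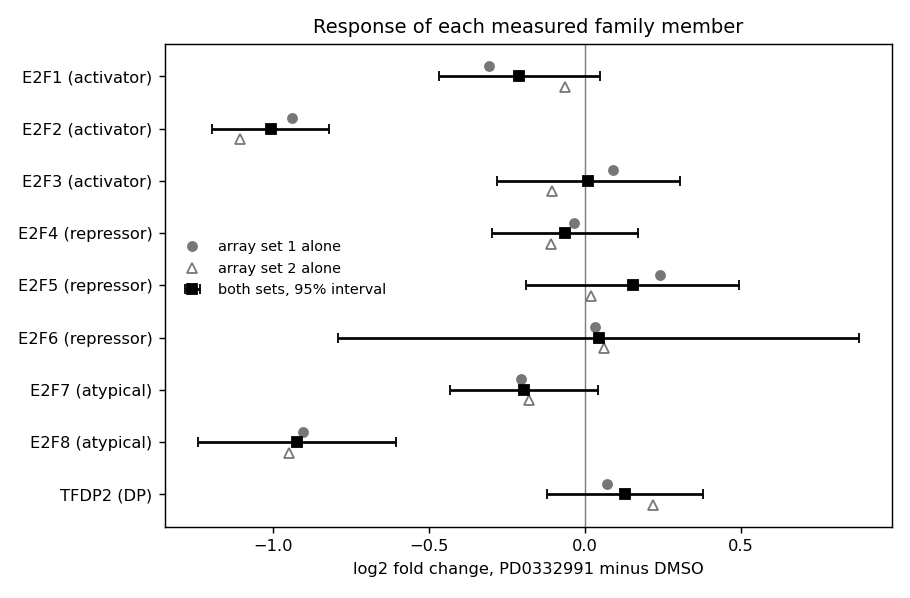
Log2 fold change of each measured member, PD0332991 minus DMSO, with the 95% interval of the limma fit over both array sets (squares), and the difference in array set 1 alone (filled circles) and set 2 alone (open triangles). The intervals of E2F2 (-1.19 to -0.82) and E2F8 (-1.24 to -0.60) lie below 0 and those of the other 7 members include it; the interval of E2F6 is the widest of the 9.

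The promoters of the activator genes are shown because E2F genes are known E2F targets and these 3 genes differed in their response. RefSeq promoters (GRCh38.p14, 250 bases before to 50 after the gene start) were found for 8 of the 10 listed genes. None was found for E2F5 and E2F8, which were therefore not searched. Capitals mark the 8-base E2F forms TTTCCCGC, TTTCGCGC, TTTGCCGC and TTTGGCGC, the 7-base forms left when their first T is dropped, and TTTCGCGG, on either strand. The first sequence lies at chr20:33686336-33686635 on the minus strand, the second at chr1:23531184-23531483 on the minus strand and the third at chr6:20401629-20401928 on the plus strand. That of E2F3 is the first of the 2 found. The other E2F3 promoter, at chr6:20403364-20403663 on the plus strand, held none of these forms.
E2F1: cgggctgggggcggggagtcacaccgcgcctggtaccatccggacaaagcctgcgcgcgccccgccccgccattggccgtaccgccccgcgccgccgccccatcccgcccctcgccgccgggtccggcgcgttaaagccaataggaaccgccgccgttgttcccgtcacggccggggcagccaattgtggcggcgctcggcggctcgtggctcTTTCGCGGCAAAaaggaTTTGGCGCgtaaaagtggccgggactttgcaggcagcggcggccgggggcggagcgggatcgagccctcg
E2F2: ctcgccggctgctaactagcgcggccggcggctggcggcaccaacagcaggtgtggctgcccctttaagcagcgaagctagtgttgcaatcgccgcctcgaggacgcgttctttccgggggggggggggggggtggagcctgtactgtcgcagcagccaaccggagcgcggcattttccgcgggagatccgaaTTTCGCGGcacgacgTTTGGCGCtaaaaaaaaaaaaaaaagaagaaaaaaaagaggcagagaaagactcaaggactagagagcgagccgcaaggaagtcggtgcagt
E2F3: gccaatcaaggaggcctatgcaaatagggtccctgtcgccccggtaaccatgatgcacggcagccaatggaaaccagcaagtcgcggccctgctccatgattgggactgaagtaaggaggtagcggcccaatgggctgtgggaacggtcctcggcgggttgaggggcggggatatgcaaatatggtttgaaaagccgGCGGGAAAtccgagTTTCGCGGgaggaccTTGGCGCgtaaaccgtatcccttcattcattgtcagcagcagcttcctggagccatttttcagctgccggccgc

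TTTCGCGG begins 37 bases before the start of E2F1, 57 before that of E2F2 and 39 before that of E2F3, on the strand of the gene in each. It is followed on the same strand by TTTGGCGC at -20 in E2F1 and at -42 in E2F2, and by the shorter TTGGCGC at -24 in E2F3. E2F1 also holds TTTGCCGC on the other strand at -33, overlapping TTTCGCGG, and E2F3 holds TTTCCCGC on the other strand at -53. Of all 35116 promoters of this length, 3.31% hold an 8-base E2F form, 12.97% a 7-base form and 0.416% TTTCGCGG. The sequence TTTCGCGG was added to the search after the promoters had been read, so its presence in these 3 is no finding. TTTCGCGG followed on the same strand by a 7-base form, with at most 40 bases between them, was found in 5 promoters. They were those of the 3 activators and of QSOX1 and SIAH1. The pair was built on the added sequence, so its presence in the 3 activators is no finding either. The log2 fold changes were -0.21 for E2F1, -1.01 for E2F2, 0.01 for E2F3, 0.06 for QSOX1 and -0.08 for SIAH1, and limma called E2F2 alone among these 5.

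Among the other members, an 8-base form was found in the promoter of TFDP1 (TTTCGCGC on the other strand at -120), and 7-base forms in those of E2F7 (-176 and -133, both on the other strand) and E2F6 (base 15 after the start, other strand). The E2F4 promoter and the 3 of TFDP2 held neither form. GGGCGG, the SP1 box, was found in at least 1 promoter of every searched member except E2F2 and in 45.0% of all promoters. CCAAT, the NF-Y box, was found for E2F1, E2F3, E2F7 and TFDP2 and in 34.6% of all promoters. TTTGAA, the CHR of genes expressed in G2 and M phase, was found for E2F3 and TFDP2 and in 15.2% of all promoters. A match describes the letters only.

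**Figure D3:**
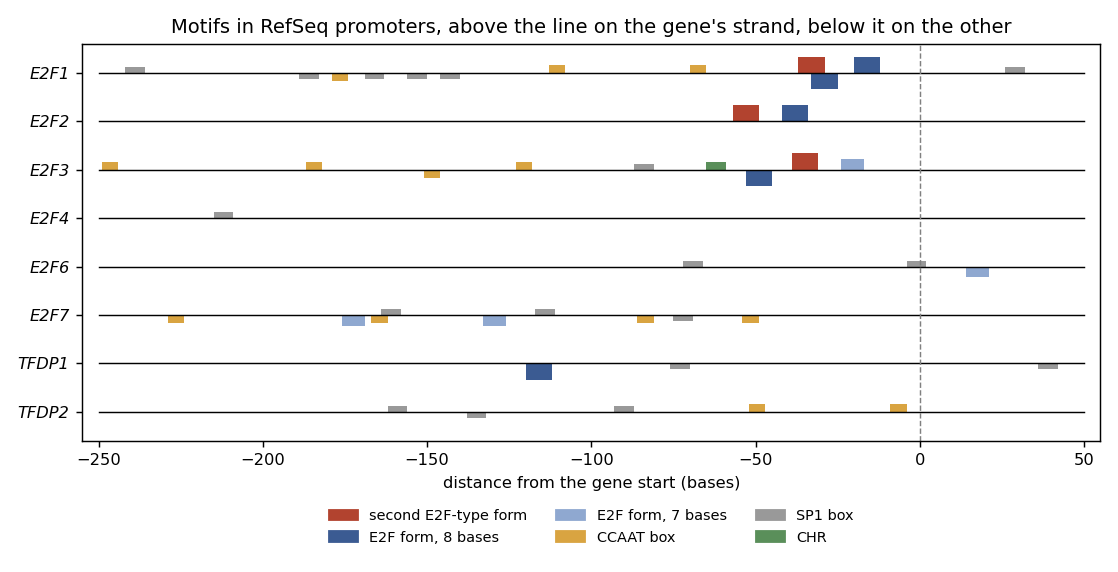
Positions of the searched sequences in the promoters of 8 family genes, from 250 bases before to 50 bases after the gene start (dashed line), with blocks above a line on the gene's strand and below it on the other; for E2F3 and TFDP2 the promoter farthest upstream is drawn. The red block (TTTCGCGG) is followed by a blue block (E2F form) in E2F1, E2F2 and E2F3 within 57 bases of the start. TTTCGCGG was added to the search after these promoters had been read.

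Responses of members of the same class were compared within arrays, as the difference of their log2 values on each array, with treatment labels permuted inside each array set (exact test, 120 assignments, 2-sided, smallest possible p = 0.0167) and Benjamini-Hochberg adjustment over the 5 pairs that could be formed. The level of such a difference has no meaning between probe sets and only its change with treatment is read. E2F1 minus E2F2 was 1.33 ± 0.28 after PD0332991 and 0.54 ± 0.21 in DMSO (SD, n = 5 each), so the log2 fold change of E2F1 exceeded that of E2F2 by 0.80 (95% interval 0.39 to 1.06, exact permutation p = 0.0167, adjusted p = 0.0278). All 5 treated arrays had a larger difference than any DMSO array. E2F2 minus E2F3 was -0.84 ± 0.31 after PD0332991 and 0.18 ± 0.25 in DMSO (SD, n = 5 each), a difference of -1.02 (-1.31 to -0.67, exact permutation p = 0.0167, adjusted p = 0.0278). All 5 treated arrays were below every DMSO array for this pair. For E2F1 and E2F3 the responses differed by -0.22, with an interval of -0.70 to 0.21 that includes 0 (exact permutation p = 0.250, adjusted p = 0.312).

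**Figure D4:**
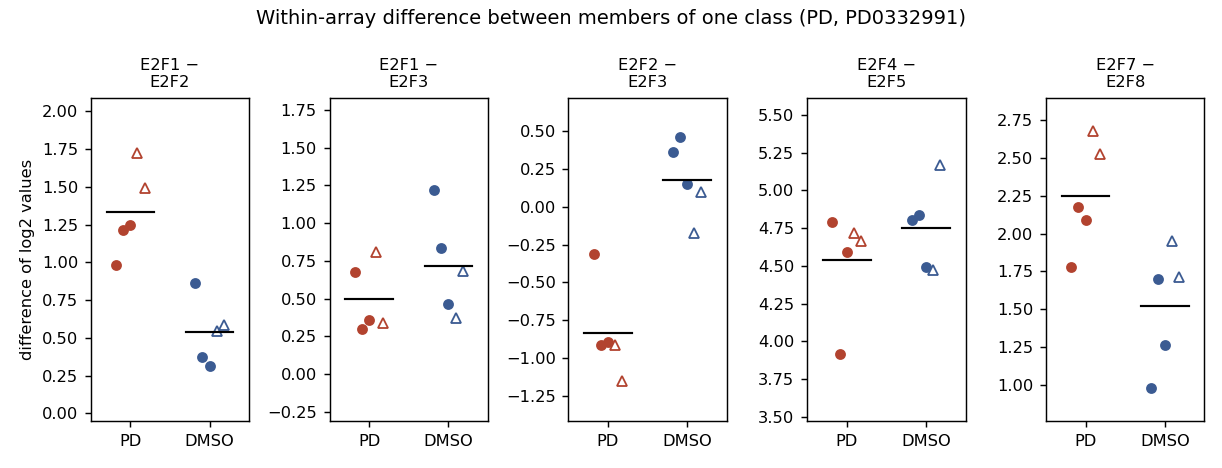
Difference of log2 values between members of one class on each array, PD0332991 (PD) left and DMSO right in each panel, with filled circles for array set 1, open triangles for set 2 and a line at each mean (n = 5). The panels share an equal span; the groups do not overlap for E2F1 minus E2F2 and for E2F2 minus E2F3, and 4 of the 5 treated arrays are above every DMSO array for E2F7 minus E2F8.

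Of the repressor members, none passed the test. E2F4, the most abundant E2F of many resting cells, had 9.75, 9.51, 9.88, 9.69 and 9.76 in PD0332991 replicates 1 to 5, against 9.65, 9.76, 9.83, 9.68 and 9.99 in DMSO replicates 1 to 5 (log2). The groups overlapped, and the log2 fold change of -0.06 had a 95% interval of -0.30 to 0.17. E2F5, its close relative, was dim, with values below the lower quartile of all probe sets on 7 of the 10 arrays. It had 4.96 to 5.59 after PD0332991 (median 5.10) and 4.82 to 5.34 in DMSO (median 4.92), a log2 fold change of 0.15 with an interval of -0.19 to 0.50. The responses of E2F4 and E2F5 differed by -0.22 (-0.71 to 0.24, exact permutation p = 0.367, adjusted p = 0.367).

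E2F6, which recruits Polycomb-type repressor complexes, had 7.27, 6.76, 7.46, 7.07 and 7.94 in PD0332991 replicates 1 to 5, against 5.77, 7.66, 7.96, 7.40 and 7.48 in DMSO replicates 1 to 5 (log2). DMSO replicate 1 was 1.63 below the next lowest DMSO array, and the SD of the DMSO group was 0.86, against 0.44 after PD0332991. The log2 fold change was 0.05 with an interval of -0.79 to 0.88, and it was -0.32 without DMSO replicate 1 (limma adjusted p = 0.9997 with all arrays and 0.999 without that one). A difference of the size seen for E2F2 thus lay outside the interval of E2F4 and E2F5 and just outside that of E2F6.

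The atypical members differed from each other. E2F8 had 6.99, 6.91, 7.04, 6.07 and 6.39 in PD0332991 replicates 1 to 5, against 8.26, 7.48, 7.92, 7.23 and 7.14 in DMSO replicates 1 to 5 (log2). No treated array reached a DMSO array, though the gap between the groups over all 10 arrays was 0.09, because both treatments were lower in set 2 than in set 1. Within set 1 the means were 6.98 after PD0332991 and 7.88 in DMSO, and within set 2 they were 6.23 after PD0332991 and 7.18 in DMSO. The log2 fold change was -0.92, a 1.90-fold lower level with a 95% interval of 1.52 to 2.36, which was not past the threshold over all 21980 probe sets (limma adjusted p = 0.106, unadjusted p = 6.8e-05). It passed where fewer probe sets were tested, without the dimmest 33.3% of them (limma adjusted p = 0.0460) or with single-symbol probe sets alone (0.0319), with array weights (0.0146), and without DMSO replicate 2 (0.0419). Without DMSO replicate 1, its highest array, the log2 fold change was -0.82 (limma adjusted p = 0.0603), and without array set as a covariate the adjusted p was 0.869.

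E2F7, which shares with E2F8 the repression of E2F target genes in S and G2 phase, had 8.77, 9.08, 9.13, 8.75 and 8.92 in PD0332991 replicates 1 to 5, against 9.24, 9.17, 9.18, 9.18 and 8.85 in DMSO replicates 1 to 5 (log2). The overlap of the groups came from DMSO replicate 5, and the log2 fold change of -0.19 had an interval of -0.43 to 0.04 (limma adjusted p = 0.9995). E2F7 minus E2F8 was 2.25 ± 0.36 after PD0332991 and 1.52 ± 0.39 in DMSO (SD, n = 5 each), so the log2 fold change of E2F7 exceeded that of E2F8 by 0.73 (95% interval 0.39 to 1.08, exact permutation p = 0.0167, adjusted p = 0.0278). For the pairs E2F1 minus E2F2, E2F2 minus E2F3 and E2F7 minus E2F8, leaving out 1 array gave adjusted p of 0.0278 to 0.0556, with values from 0.72 to 0.91, from -1.12 to -0.96 and from 0.64 to 0.84. All 3 pairs missed 0.05 without any 1 of PD0332991 replicates 1, 2 and 3, as did E2F2 minus E2F3 without DMSO replicate 2 and E2F7 minus E2F8 without DMSO replicate 1, each at an adjusted p of 0.0556.

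TFDP2, which encodes a DP partner of the E2F proteins, had 9.67, 9.39, 9.88, 9.30 and 9.49 in PD0332991 replicates 1 to 5, against 9.55, 9.49, 9.69, 9.13 and 9.22 in DMSO replicates 1 to 5 (log2). The groups overlapped. The log2 fold change was 0.13 with an interval of -0.12 to 0.38 (limma adjusted p = 0.9995), at 0.07 in set 1 and 0.22 in set 2.

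Whether members responded alike in both array sets was tested with limma's interaction of treatment and set. It called 0 of the 9 members, with 0% among all 21980 probe sets, and at an unadjusted p under 0.05 it gave 0 members and 562 of all probe sets. For E2F2 the interaction was -0.17 (set 2 minus set 1, 95% interval -0.57 to 0.24) and for E2F8 it was -0.05 (-0.74 to 0.65). The widest interval was that of E2F6, -1.79 to 1.85. Within sets, every treated array was below every DMSO array for E2F2 and E2F8 in both sets, an order held by 1.45% of all probe sets. E2F1 and E2F7 had that order in set 1 but not in set 2. The share of all probe sets with that order in set 1 alone was not counted, so nothing is read from it. No member had every treated array above every DMSO array in both sets, which 0.814% of all probe sets did.

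Genes around the family were read from 7 lists with 110 genes, of which 91 were measured. The lists were chosen with earlier results of these data known. Their counts are set beside those of all genes as a description only. Limma called 5 of them lower and 0 higher, with 26 lower and 1 higher at an unadjusted p under 0.05, and their median log2 fold change was -0.15. Over all 14232 genes, limma called 9 lower and 2 higher. At an unadjusted p under 0.05, 2.52% of all genes were lower and 1.3% higher. A value below 0 was held by 55.3% of all genes, and their median was -0.02. The 1 higher gene, named here after its values were seen, was CCND2, a D-type cyclin that activates CDK4 and CDK6, at 0.59 ± 0.12 (SE, limma adjusted p = 0.265). The 33 measured E2F-activated genes of G1/S and replication had 32 values below 0 and a median of -0.34. Of these, 3 passed the test. CDC25A, the phosphatase that activates CDK2, had a log2 fold change of -1.10 ± 0.11 (SE, limma adjusted p = 0.00911). DTL, a substrate receptor in CDT1 degradation, had -1.15 ± 0.16, and the replication initiation factor MCM10 had -0.77 ± 0.11 (limma adjusted p = 0.0499 for both). The number called in this list was 6 without DMSO replicate 1, 1 when replicate 2 or 3 of either treatment was left out, and 0 when 1 of the other 5 arrays was left out. Of 13 cyclins, CDKs and CDK inhibitors upstream of RB1, with 8 below 0 and a median of -0.21, CCNE1 (-0.95) and CCNE2 (-1.89), the cyclins that activate CDK2, were called lower (limma adjusted p = 0.00911 for both). Neither was called when PD0332991 replicate 1, or replicate 4 or 5 of either treatment, was left out (limma adjusted p = 0.0521 to 0.0590).

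The other 5 lists held no call by limma, with 7 of their 45 measured genes lower and 0 higher at an unadjusted p under 0.05. Over all genes these shares were 2.52% and 1.3%. Of 6 measured genes on the list of pocket proteins and MuvB subunits, which also holds MYBL2, 3 were below 0, with a median of -0.02. RBL1 had a log2 fold change of -0.48 ± 0.14 and RB1 of -0.15 ± 0.16 (SE, limma adjusted p = 0.686 and 0.9995). With array weights RBL1 was called lower, at -0.62 (limma adjusted p = 0.0331). Of 9 measured genes of the E2F6 repressor complex 6 were below 0, with a median of -0.08, the Polycomb-like L3MBTL2 at -0.33 and the histone methyltransferase EZH2 at -0.40. Among 12 genes of E2F turnover and cofactors the median was -0.04, with 8 below 0, SKP2, the F-box protein that targets E2F1, at -0.27 and FZR1, an activator of the anaphase-promoting complex, at -0.14. Of 12 apoptosis genes linked to E2F1, 10 were below 0 with a median of -0.07, TP73, a relative of p53, at -0.36 and PPP1R13B at -0.26. Of 6 germline genes known from mouse as repressed by E2F6, 3 were below 0 with a median of -0.03, TAF7L at -0.18 and SMC1B at -0.21. TAF7L, SMC1B, SLC25A31, STK31 and MAEL were below the lower quartile on all 10 arrays, where changes of dim genes are compressed.

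**Figure D5:**
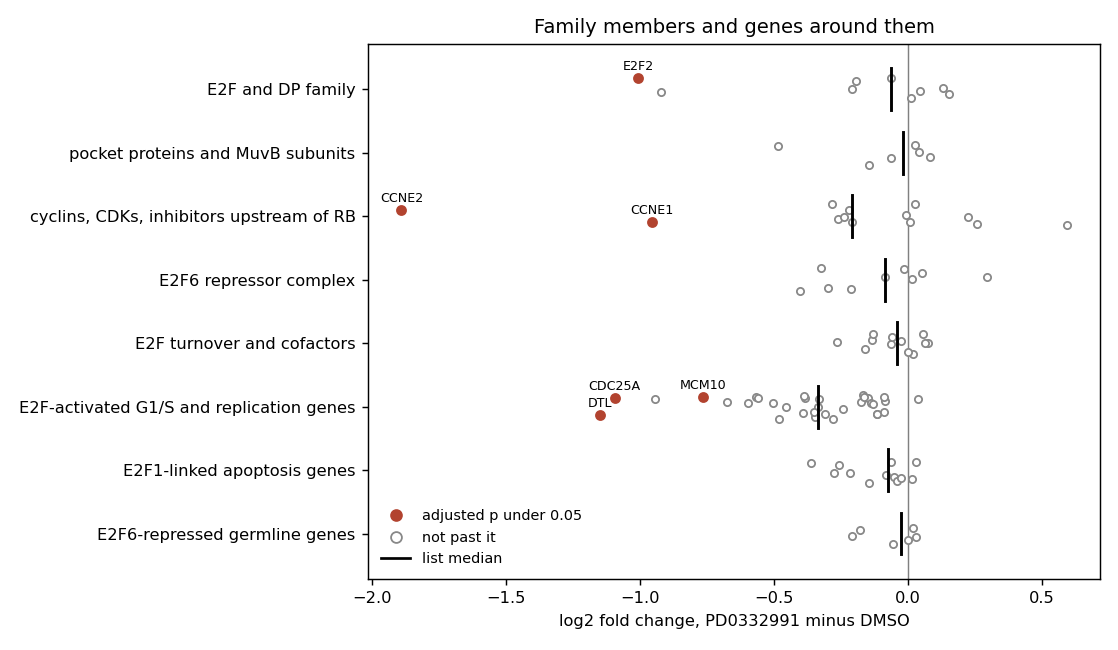
Log2 fold change, PD0332991 minus DMSO, of the 9 family members and of 91 measured genes in 7 lists; each point is a gene, red points passed the limma test over all probe sets (adjusted p under 0.05) and the black line is the list median. E2F2 is the called member of the family, and the other called genes are CCNE2, CCNE1, DTL, CDC25A and MCM10.

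Genes whose pattern was most like that of a member were found by Pearson's r over the 10 arrays after the mean of each array set had been subtracted, among 10226 single-symbol genes outside the dimmest 33.3% of probe sets. For E2F2 they were LIMK2 (r = 0.991), a kinase that acts on the actin regulator cofilin, CCNE1 (0.982) and CDC25A (0.979), with log2 fold changes of -0.43, -0.95 and -1.10. For E2F8 they were SRSF4 (r = 0.968), a splicing factor, SIK2 (0.962), a kinase, and IQCC (0.960), with -0.43, -0.40 and -0.48. For E2F7 they were DCLK2 (r = 0.954), MKI67 (0.908), the proliferation marker, and BRD9 (0.885), whose log2 fold changes lay between -0.12 and -0.08. All points share the same arrays and span both treatments, so each r includes any treatment difference. An r within a treatment was not computed. The genes named for each member are the 3 with the highest r of 10226, so high values come in part from that choice.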

How the data were processed

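Total RNA of U2OS cells was hybridised to Affymetrix exon arrays, 5 per treatment, named as biological replicates in the labels. The values are the log2 expression values the authors deposited, with a value for each array at the gene level. RMA, Partek and hg18 are given, without versions, in the submitters' processing notes. The values were used unchanged. RMA compresses the changes of dim genes, detection calls were not used here, and levels of different probe sets are not comparable. Of 21980 probe sets, 14432 carried 1 gene symbol in the platform annotation, 2408 carried several and 5140 none. Genes with several probe sets were represented by the one with the highest mean.

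A linear model of treatment and array set was fitted to every probe set in limma (version 3.58.1, R 4.3.3), and moderated 2-sided p-values were adjusted over all of them by Benjamini-Hochberg, with a threshold of 0.05. Intervals are at 95%, and those of pair differences come from inverting the permutation test. The fit was tested on simulated data. Motifs were searched in RefSeq promoters with Python 3.11.15.

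The text names all members, each list gene past the threshold or, where none passed, the 2 with the smallest p, and the 3 genes most alike for each of the 3 members with the smallest p. The members and lists were chosen with earlier results of these data known. Alternatives were other covariates, normalizations, filters, priors and weights, each array set alone and each array left out. The precision is limited by the number of arrays.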

Additional observations from a re-analysis of the deposited data

Results flagged for a closer look

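In 48 groups of 5 arrays, the 2 treatments of each named gene, the highest or lowest array was looked at for a gap to its nearest neighbour above 0.710 of the group's range, which chance gives in about 1 of 20 groups. This held in 4 groups. For E2F6, DMSO replicate 1 had 5.77, while the other DMSO arrays had 7.40 to 7.96 (log2). For E2F7, DMSO replicate 5 had 8.85, while the other DMSO arrays had 9.17 to 9.24. For CCNE1, PD0332991 replicate 3 had 9.41, while the other treated arrays had 9.10 to 9.17. For SMC1B, DMSO replicate 1 had 4.08, while the other DMSO arrays had 3.47 to 3.56. DMSO replicate 1 also had the lowest weight when limma estimated array weights, 0.147, against 0.504 to 2.07 on the other arrays. Its part in the E2F6 and SMC1B values was not tested beyond leaving it out.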

How the results depend on the processing

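E2F2 passed the limma test under 8 of 11 settings other than leaving out an array, and the directions of E2F1, E2F2, E2F4, E2F5, E2F7, E2F8 and TFDP2 were the same under every alternative run for them. Same-numbered samples deviated together with r of 0.09, 0.02 and 0.40 for replicates 1, 2 and 3 and -0.05 for replicates 4 and 5. Set 2 has 2 arrays per treatment, so the values of replicates 4 and 5 are equal by construction. The numbers were not taken to pair the samples, though so few values cannot exclude a pairing. With the replicate block, limma called 0 members lower, 0 list genes, 1 probe set lower and 1 higher, E2F2 was at -1.01 (limma adjusted p = 0.0607), and the pairs E2F1 minus E2F2, E2F2 minus E2F3 and E2F7 minus E2F8 were at 0.80, -1.02 and 0.73 (exact permutation p = 0.0625, the smallest that design allows, adjusted p = 0.104). Each array set alone gave 0 calls of any kind; E2F2 was at -0.94 in set 1 and -1.11 in set 2, and the same pairs were at 0.63, -1.03 and 0.70 in set 1 and at 1.045, -1.0 and 0.77 in set 2, with too few arrays for the pairs to pass. In set 2 alone E2F3 (-0.11), E2F1 minus E2F3 (0.044), RB1 (0.038), TAF7L (0.015) and SMC1B (0.089) changed sign. Without the dimmest 33.3% of probe sets 2 members were called lower, with E2F8 at -0.92. With single-symbol probe sets 2 members, 14 probe sets lower and 4 higher were called, with E2F8 at -0.92. Both filters test fewer probe sets. With array weights 2 members, 50 probe sets lower and 13 higher, and 11 list genes lower and 1 higher were called, E2F8 was at -0.86, and E2F3 (-0.084) and E2F6 (-0.30) changed sign; the cause was not tested. Without a covariate 1 probe set was called higher, and with array medians subtracted 1 probe set higher and 3 list genes lower were. Leaving out 1 array gave 1 to 2 members lower, 1 to 20 probe sets lower, 1 to 3 higher and 0 to 8 list genes lower. The count of probe sets lower was 9 with all arrays, 20 without DMSO replicate 1, 5 without PD0332991 replicate 2 or 3, and 1 when PD0332991 replicate 1, or replicate 4 or 5 of either treatment, was left out. Leaving out 1 array put E2F8 at -1.04 to -0.82, E2F3 at -0.048 to 0.087, E2F6 at -0.32 to 0.27, and the 3 pairs at 0.72 to 0.91, -1.12 to -0.96 and 0.64 to 0.84. The interaction with array set called 0 probe sets in the fit reported and in the 16 alternatives run (smallest adjusted p = 0.0641, without PD0332991 replicate 5), and its fit with array weights did not converge and is not given. No member had another single-symbol probe set to set beside the one used.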

Other observations

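Between members, Pearson's r over the 10 arrays, after each array set's mean had been subtracted, was 0.90 for E2F2 and E2F8, 0.87 for E2F3 and E2F5, 0.65 for E2F1 and E2F8 and -0.65 for E2F1 and E2F6. The points share the same arrays and the treatment, and no test was made. E2F3 and E2F5 had log2 fold changes of 0.01 and 0.15, so their r is not between members with a called treatment difference. Among all probe sets, 20 had a lower log2 fold change than E2F2 and 34 a lower one than E2F8.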
